A study of Mus musculus with 24 samples.

Results

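The genes described here are the kinases and phosphatases that set the inhibitory phosphate on the mitotic kinase CDK1, and the checkpoint kinases that act on them. The list has 10 names: Wee1, Pkmyt1, Cdc25a, Cdc25b, Cdc25c, Atr, Atrip, Atm, Chek1 and Chek2. Each was taken by its gene symbol, with 1 probe set per gene, the one with the highest mean over 24 arrays. Of the 10, 9 had a probe set of their own, of 22180 genes measured in all, and all 9 passed the filter on dim genes. Pkmyt1 has no value, because the probe set that carries its symbol also carries that of Paqr4.

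The arrays held mouse RNA from Brca1 mutants and from wild type animals at 4 stages labelled V, dp12, dp18 and Lac10, with 3 arrays per group, 12 mutant and 12 wild type. All groups share one mixed background of FVB, 129SVEV and Black Swiss. The labels name neither the mutant allele nor the tissue nor a mouse age, and the design text enters the stages as months although dp and Lac read as days of pregnancy and of lactation. The treatment field speaks of RNA pulled down with tagged PAB-1, which does not match the total RNA and Trizol extraction given elsewhere in the labels. The sample titles give each mutant array a number of its own, number the wild type arrays within each stage and add a body weight for all but 2 arrays, so the arrays read as separate animals, although no label says so outright. Titles at dp18 and Lac10 also add a colour word, except for replicate 1 at dp18, without saying what it describes. At Lac10 it is white, golden and white in mutants, and white, brown and brown in wild type. At dp18 it is white and white in mutants, and white and brown in wild type. The study's title places the question in replication fork firing and mitosis under BRCA1 during pregnancy.

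WEE1 and its membrane-bound relative PKMYT1 phosphorylate CDK1 and hold it inactive, and the CDC25 phosphatases remove that phosphate so that mitosis can begin. ATR, bound to its partner ATRIP, is activated by single-stranded DNA at stalled replication forks and switches on CHK1, the product of Chek1. ATM is activated by double-strand breaks and switches on CHK2, the product of Chek2, and both checkpoint kinases act on CDC25 proteins to delay division. In the mammary gland the epithelium divides during pregnancy and then turns to milk secretion. In mouse liver Wee1 is also known as a gene driven by the circadian clock.

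RMA values are on a log2 scale, on which 1 unit is a doubling, and a level is comparable between arrays for one probe set but not between probe sets. Brca1 itself lay between 4.33 and 6.79 on mutant arrays and between 4.64 and 6.43 on wild type arrays, and whether its probe set lies in the part altered in the mutant is not given in the sources used here. Array resemblance, the median Pearson correlation of an array with the other 23, ran from 0.799 to 0.968. It was under 0.9 for mutant Lac10 replicate 2 (0.799), wild type dp18 replicate 1 (0.837) and mutant dp18 replicate 1 (0.863). In all, 12 arrays correlated best with another group's mean and 10 of them with another stage. The mean of an array's own group left that array out and so held 1 array fewer than the other means. The comparison is therefore not quite like for like. Wild type Lac10 replicate 1 was closer to mutant dp12 (0.978) than to its own group (0.943), and mutant dp18 replicate 2 closer to wild type Lac10 (0.935) than to its own group (0.898). The array medians lay between 5.31 and 5.62, and the 13 markers of luminal epithelium averaged between 6.73 and 9.98 on every array. In such bulk RNA fewer cells of a type and less RNA per cell cannot be told apart.

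In the RefSeq table for GRCm38.p6, 5 of the members lie on chromosome 9. Wee1 lies on chromosome 7, at chr7:110122059-110143299. The RefSeq promoter table holds 7 of the members, and upstream stretches are shown for the 4 that have at least 50 upstream bases outside any RefSeq gene range. They set Cdc25a, Chek1 and Atm, which were called higher at dp12 in at least 1 genotype, beside Atrip, which was not. Cdc25b, Atr and Chek2, also called at dp12, have fewer such bases. Each stretch lies before the gene's outermost start, on the gene's own strand, and comes from RefSeq for GRCm38.p6. Both strands were searched for CACGTG (the E-box), TTTGAA (the CHR of late cell cycle promoters), CCAAT (the NF-Y box), and TTTCGCGC and TTTGGCGC (E2F sites). The capitals mark matches, all of them CCAAT on the opposite strand, and no other motif matched within the printed bases. Bases inside a gene range were not searched. For Cdc25a and Atm these include the bases nearest the start site used in the promoter table. The Cdc25a stretch also ends in tttggc, which begins the E2F site TTTGGCGC, so a site running past its end could not be seen. The search therefore does not show that these promoters lack the other motifs.
Cdc25a, plus strand, chr9:109875329-109875517: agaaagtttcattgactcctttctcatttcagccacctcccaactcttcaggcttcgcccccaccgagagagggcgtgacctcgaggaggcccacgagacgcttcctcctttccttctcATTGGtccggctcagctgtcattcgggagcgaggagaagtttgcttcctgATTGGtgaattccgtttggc
Chek1, minus strand, chr9:36726659-36726908: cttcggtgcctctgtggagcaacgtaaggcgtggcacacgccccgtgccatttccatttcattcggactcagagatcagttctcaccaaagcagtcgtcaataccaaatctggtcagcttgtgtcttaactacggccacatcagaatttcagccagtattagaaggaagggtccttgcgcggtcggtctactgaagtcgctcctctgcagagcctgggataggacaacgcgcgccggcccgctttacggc
Atm, minus strand, chr9:53536829-53536888: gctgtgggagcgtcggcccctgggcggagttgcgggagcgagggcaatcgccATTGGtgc
Atrip, minus strand, chr9:109074125-109074374: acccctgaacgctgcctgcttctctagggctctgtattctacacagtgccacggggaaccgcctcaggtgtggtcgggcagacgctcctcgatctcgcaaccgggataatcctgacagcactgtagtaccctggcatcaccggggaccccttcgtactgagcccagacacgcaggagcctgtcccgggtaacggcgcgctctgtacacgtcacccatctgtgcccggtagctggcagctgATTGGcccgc
The Cdc25a stretch of 189 bases held 2 CCAAT matches, and 26.5% of all 32851 promoter windows hold at least 1 in the same positions. Atm, whose 60 bases are all that lies between it and its divergent neighbour Npat, held 1, against 8.23% of windows. Atrip held 1 in 250 bases and Chek1 none, where 33.8% of windows hold one. Cdc25a and Atm, which were called at dp12, and Atrip, which was not, hold the match.

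At dp12, 4 of the 9 members were higher than at V in mutants and 7 in wild type animals, the same 4 among them. The calls in mutants were Cdc25a, Cdc25c, Chek1 and Chek2, where 3.02% of all 15234 genes tested were called higher (limma, Benjamini-Hochberg adjusted p under 0.05). The calls in wild type were these 4 with Cdc25b, Atr and Atm, where 5.91% of all genes were called higher. No member fell in either genotype. The dp12 and V arrays did not overlap for 6 of 9 members in mutants, against 22.1% of all genes, and for 8 of 9 in wild type, against 41.7%. The median over the 9 was 0.99 in mutants and 1.26 in wild type on the log2 scale, beside 0.01 and 0.28 over all genes tested. Wee1 and Atrip were called in neither genotype.

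**Figure D1:**
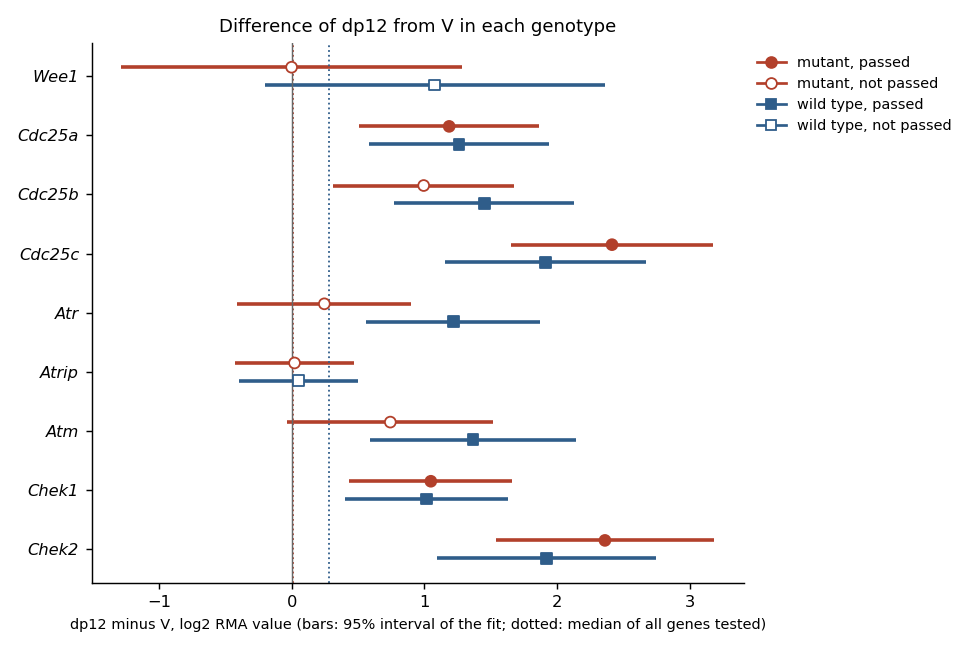
Difference of dp12 from V for the 9 measured members, on the log2 scale, with mutants above wild type in each row, 95% intervals of the limma fit, filled symbols for adjusted p under 0.05, and dotted lines at the median of all genes tested. Cdc25c and Chek2 lie furthest right in both genotypes, at 2.41 and 2.36 in mutants and at 1.91 and 1.92 in wild type, while Atrip lies at 0.02 and 0.05.

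Cdc25c, the phosphatase that opens the way to mitosis, read 6.56, 6.87 and 7.37 at dp12 in mutants, against 4.55, 4.46 and 4.55 at V. In wild type it read 6.96, 6.40 and 6.85 at dp12, against 5.24, 4.46 and 4.77 at V. Every dp12 array was above every V array in both genotypes. The rise was 2.41 in mutants (SE 0.36, adjusted p = 0.00063) and 1.91 in wild type (SE 0.36, adjusted p = 0.0112). All 6 V values of Cdc25c lay below 5.31, the lowest array median, so its probe set was not above the array median at V, and it was above on 14 of the 24 arrays.

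Chek2, the kinase downstream of ATM, had the other large rise. It read 7.71, 7.64 and 7.93 at dp12 in mutants, against 5.97, 4.80 and 5.42 at V. In wild type it read 7.52, 7.47 and 7.23 at dp12, against 5.60, 5.94 and 4.92 at V. Again the stages did not overlap, and the dp12 arrays lay close together (SD 0.15 in each genotype, n = 3). The rise was 2.36 in mutants (SE 0.40, adjusted p = 0.00118) and 1.92 in wild type (SE 0.40, adjusted p = 0.0130).

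Cdc25a, the phosphatase that CHK1 targets for destruction in S phase, read 7.46, 7.63 and 7.68 at dp12 in mutants, against 7.01, 5.94 and 6.26 at V. In wild type it read 7.39, 7.11 and 6.84 at dp12, against 5.96, 5.83 and 5.77 at V. The stages were apart in both genotypes, with mutant V replicate 1 nearest to the dp12 arrays. It rose by 1.19 in mutants (SE 0.33, adjusted p = 0.0408) and by 1.26 in wild type (SE 0.33, adjusted p = 0.0317).

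Chek1, the kinase that ATR activates, read 6.73, 6.72 and 7.11 at dp12 in mutants, against 6.37, 5.69 and 5.36 at V. In wild type it read 6.89, 6.33 and 6.62 at dp12, against 5.68, 5.27 and 5.84 at V. The groups did not overlap, and both calls were near the threshold. The rise was 1.05 in mutants (SE 0.29, adjusted p = 0.0456) and 1.01 in wild type (SE 0.29, adjusted p = 0.0458).

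Cdc25b, Atr and Atm were called in wild type and not in mutants. Cdc25b, a phosphatase that acts at the start of mitosis, read 6.62, 6.69 and 7.02 at dp12 in mutants, against 5.84, 5.94 and 5.56 at V, and 7.00, 6.79 and 6.84 at dp12 in wild type, against 5.50, 5.77 and 5.01 at V. Atr read 6.86, 7.02 and 7.34 at dp12 in mutants, against 7.40, 6.89 and 6.21 at V, and 7.20, 7.04 and 7.02 at dp12 in wild type, against 6.08, 5.49 and 6.03 at V. Atm read 6.99, 7.03 and 7.27 at dp12 in mutants, against 6.94, 6.36 and 5.76 at V, and 7.07, 6.93 and 6.70 at dp12 in wild type, against 5.87, 5.20 and 5.53 at V. At dp12 the genotypes overlapped for each of these genes, and for Atr the mutant stages overlapped. The dp12 difference of Cdc25b was 0.99 in mutants (SE 0.33, adjusted p = 0.0962) and its rise in wild type was 1.45 (adjusted p = 0.0172). That of Atr was 0.24 in mutants (SE 0.32, adjusted p = 0.869) and 1.22 in wild type (adjusted p = 0.0318; 0.68 averaged with its other, dim probe set, adjusted p = 0.0528), and that of Atm was 0.74 in mutants (SE 0.37, adjusted p = 0.357) and 1.37 in wild type (adjusted p = 0.0388). The difference between genotypes in the dp12 change was tested directly and passed for no member (0.00656% of all genes were called, and 5.95% had an unadjusted p under 0.05). It was -0.97 for Atr (95% interval -1.90 to -0.04, adjusted p = 0.695), -0.62 for Atm (-1.72 to 0.47, adjusted p = 0.725) and -0.46 for Cdc25b (-1.42 to 0.51, adjusted p = 0.751).

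Wee1 at dp12 read 9.87, 10.06 and 10.20 in mutants, against 9.80, 10.45 and 9.89 at V. In wild type it read 10.05, 10.23 and 10.36 at dp12, against 9.35, 9.05 and 9.01 at V. The mutant stages overlapped and the wild type stages did not. The mutant difference was -0.00 (95% interval -1.29 to 1.28, adjusted p = 1.00) and the wild type difference 1.08 (-0.21 to 2.36, adjusted p = 0.219). The wild type difference passed when the 3 arrays of low resemblance were left out (1.08, adjusted p = 0.0434) and when only the 6 arrays compared were fitted (adjusted p = 0.00553). The difference between the genotypes in this change was -1.08 (95% interval -2.90 to 0.73, adjusted p = 0.717), and it passed with the 12 compared arrays alone (adjusted p = 0.0260) and under array weights (-1.22, adjusted p = 0.0256). For these refits of Wee1 the share of all genes called is not given here. Atrip, the ATR partner, stayed within 0.80 over all 24 arrays, between 5.90 and 6.70, and differed by 0.02 in mutants (95% interval -0.43 to 0.47) and by 0.05 in wild type (-0.40 to 0.50). RefSeq also lists a read-through transcript over Atrip, so its probe set may read both.

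Averaged over the genotypes, the same 7 members as in wild type were called higher at dp12, where 13% of all genes were. Cdc25c rose by 2.16 (SE 0.26, adjusted p = 1.97e-05), Chek2 by 2.14 (SE 0.28, adjusted p = 4.32e-05) and Atr by 0.73 (SE 0.22, adjusted p = 0.0310). In mutants the count of 4 was 2 without any 1 of the dp12 arrays, V replicate 2, V replicate 3, wild type dp12 replicate 2 or wild type V replicate 3. In wild type the count of 7 was 0 without dp12 replicate 1, V replicate 2 or V replicate 3, 1 without dp12 replicate 2 and 2 without dp12 replicate 3, while over both genotypes it was 6 or 7 whichever array was left out. How the share of all genes called moved in these refits is not given here. Centring each array on housekeeping genes moved the median of all genes by -0.40 in mutants and -0.52 in wild type, and left Chek2 alone called in wild type (1.40, adjusted p = 0.0433). A difference set against the median of all genes is the same under either centring. Against that median, Chek2 was 2.35 higher in mutants and 1.64 higher in wild type, Cdc25c 2.41 and 1.64, Cdc25a 1.18 and 0.98, and Atrip 0.01 and -0.23.

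**Figure D2:**
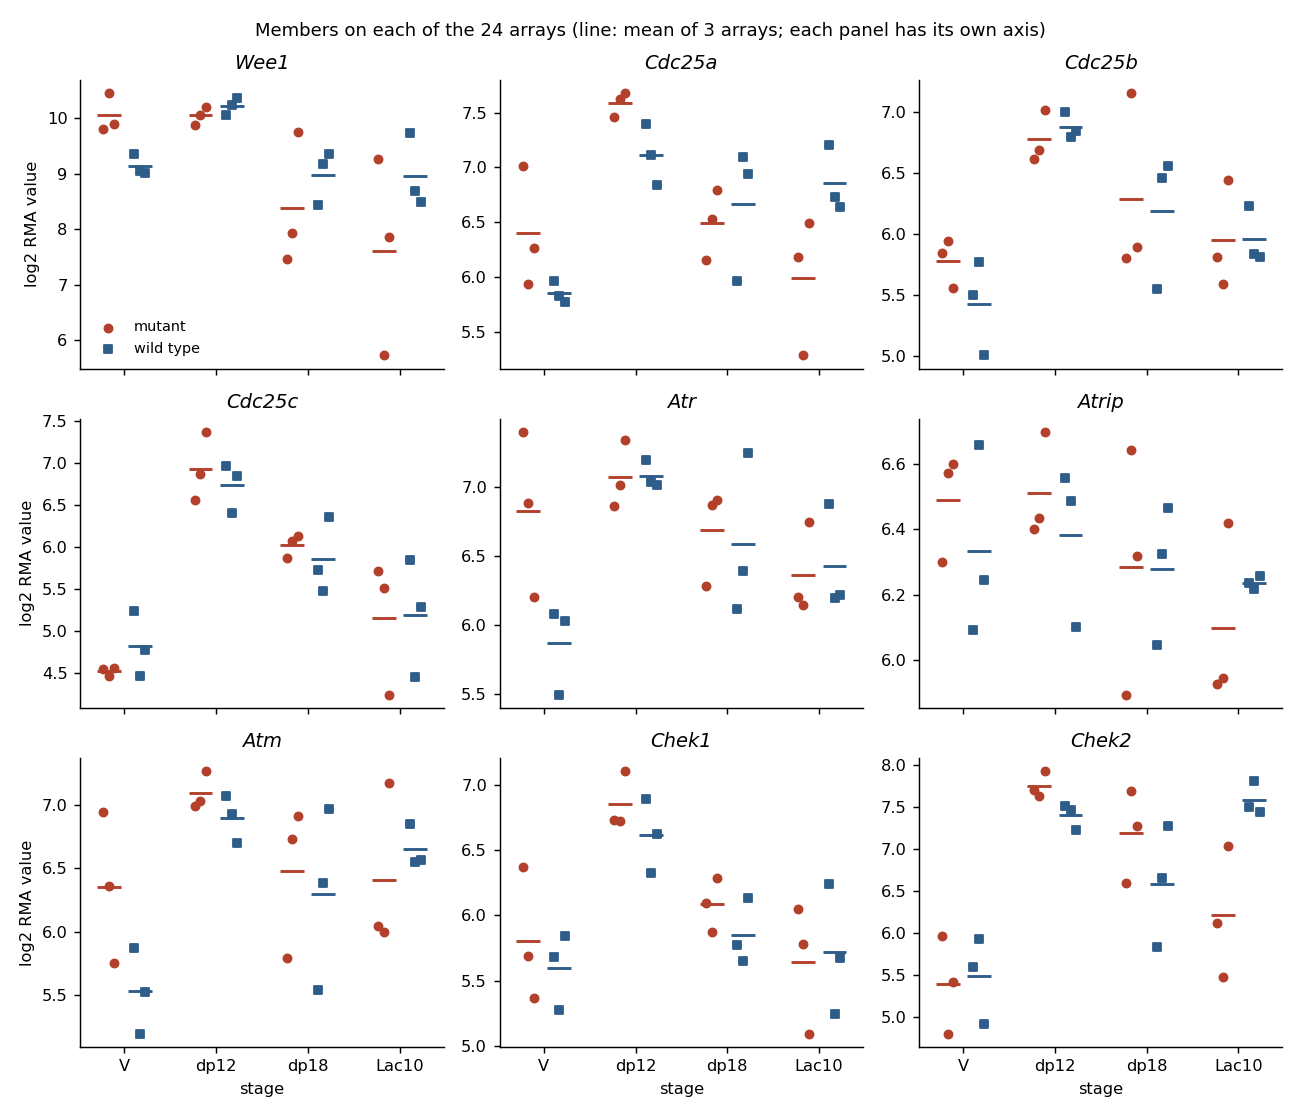
Log2 RMA value of the 9 measured members on each of the 24 arrays, by stage in order, with mutant arrays as circles left of wild type arrays as squares and a line at the mean of 3 arrays, each panel on its own axis. Cdc25c has its highest mean at dp12 in both genotypes, while the Wee1 panel is stretched by mutant Lac10 replicate 2 at 5.73.

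Proliferation genes moved with these members. The 15 measured genes of the proliferation list averaged between 7.73 and 8.47 on mutant dp12 arrays, against 4.98 to 5.97 on mutant V arrays. In wild type they averaged between 7.70 and 8.09 at dp12, against 5.38 to 6.25 at V. All 15 rose in each genotype, with medians of 2.64 in mutants and 2.15 in wild type. Mki67, a mark of dividing cells, rose by 3.37 in mutants (adjusted p = 0.000831) and by 3.00 in wild type (adjusted p = 0.00924). The luminal epithelium list averaged 9.85 to 9.92 at dp12 in mutants, against 9.48 to 9.69 at V, and 9.86 to 9.98 at dp12 in wild type, against 8.57 to 9.27 at V. Of its 13 genes 1 rose in each genotype. Skeletal muscle genes stood at 7.49 on wild type V replicate 2, against 5.56 and 5.75 on the other wild type V arrays. That array was also the lowest of its group on the luminal list (8.57, against 9.24 and 9.27). It was the highest on the endothelium (9.58, against 7.68 and 8.46), macrophage and neutrophil (8.56, against 6.20 and 7.76) and lymphocyte lists (7.63, against 5.54 and 5.33). The part of dividing or luminal cells in the members' rise was not tested.

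The partners of the members give the setting. Among the CDK1, cyclin B and mitotic entry genes, 10 of 16 rose at dp12 in mutants and 9 of 16 in wild type, and none fell. Plk1, a kinase that turns WEE1 over and activates CDC25C, rose by 2.59 in mutants (adjusted p = 0.00071) and by 2.26 in wild type (adjusted p = 0.00924). Ccnb2, a cyclin partner of CDK1, rose by 3.15 in mutants and 2.79 in wild type. Cdk1, which is on this list and on the proliferation list, rose by 2.99 in mutants and 1.99 in wild type. The cyclin gene Ccnb1 had no probe set of its own.

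Among genes that load or activate ATR, 7 of 18 rose in mutants and 6 of 18 in wild type. Rfc5, a subunit of clamp loaders, rose by 1.19 in mutants and 1.36 in wild type. Clspn, whose product claspin brings CHK1 to ATR, rose by 0.86 in mutants (adjusted p = 0.0204) and 0.77 in wild type (adjusted p = 0.0388), and Rpa1, a subunit of the protein that coats single-stranded DNA, by 1.06 in mutants and 1.10 in wild type. These rises stand beside the near-constant Atrip. Among genes of ATM and double-strand break signalling, 3 of 17 rose in mutants and 6 of 17 in wild type. Bard1, the BRCA1 partner, rose by 1.22 in mutants and 1.16 in wild type, and Brca1 rose by 1.66 in mutants (adjusted p = 0.00244) and 1.07 in wild type (adjusted p = 0.0445).

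The helicase and origin genes rose in 8 of 14 cases in mutants and 5 of 14 in wild type, with Gins1 at 1.95 in mutants and 1.18 in wild type. Mcm2, a helicase subunit, rose by 1.66 in mutants (adjusted p = 0.0437), and in wild type differed by 1.33 (adjusted p = 0.0740). The stability and 14-3-3 list, which holds the ubiquitin ligases, chaperones and 14-3-3 proteins that control WEE1 and CDC25, had no call in mutants and 1 of 17 in wild type, Usp28 at 0.90. The p53 response list had none in mutants and 1 of 17 in wild type, Btg2 at 1.13. Of 13 clock output genes, none rose in mutants and 1 in wild type, Hlf at 1.52, and of 4 clock activators none was called. The lists were described by these counts alone, beside the shares of all genes given above.

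**Figure D3:**
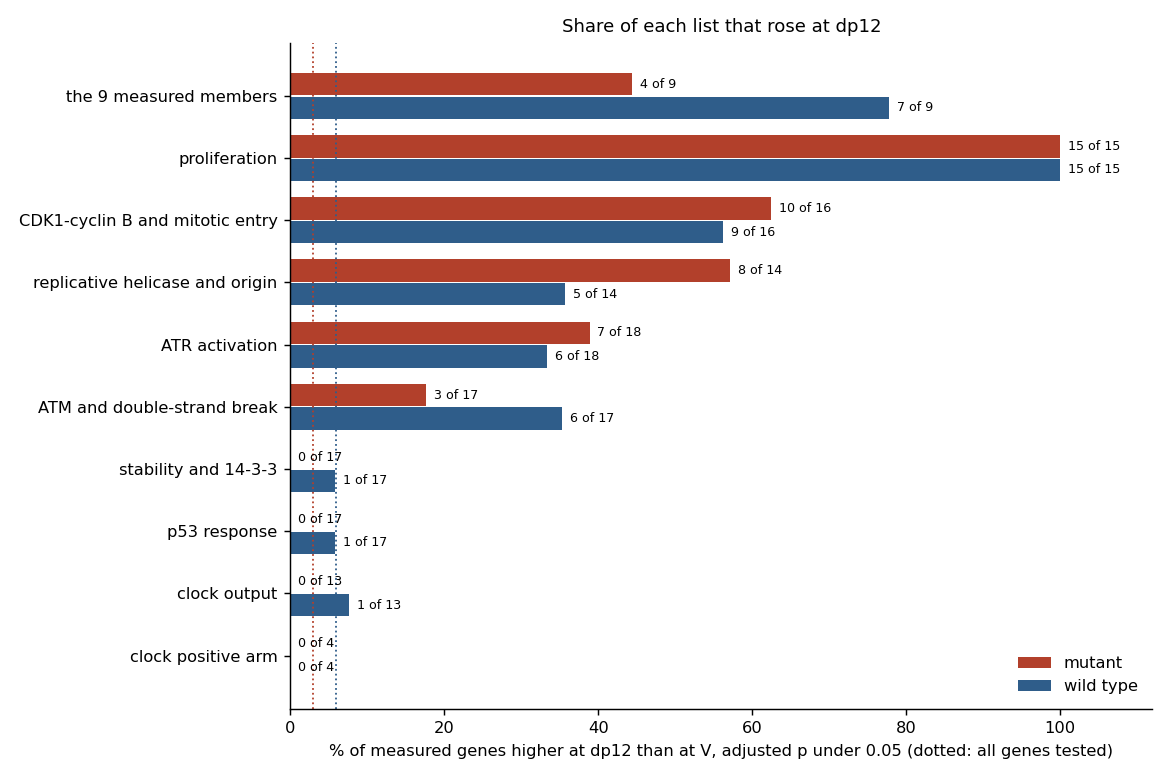
Percentage of the measured genes of each list called higher at dp12 than at V (limma, adjusted p under 0.05), with the mutant bar above the wild type bar, counts at the bar ends, and dotted lines at the share of all genes, 3.02% in mutants and 5.91% in wild type. The proliferation list reached 15 of 15 in each genotype and the members 4 of 9 in mutants and 7 of 9 in wild type.

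From dp12 onward no member passed in a single genotype. At dp18 all 9 lay below dp12 in both genotypes, where no gene of the 15234 was called (at an unadjusted p under 0.05, 13.7% of genes in mutants and 9.69% in wild type). Wee1 read 7.46, 7.93 and 9.76 at dp18 in mutants, against 9.87, 10.06 and 10.20 at dp12, and 8.43, 9.17 and 9.35 at dp18 in wild type, against 10.05, 10.23 and 10.36 at dp12. Every dp18 array lay below every dp12 array of its genotype, which held for 5 of 9 members in mutants, against 20.6% of genes, and for 4 of 9 in wild type, against 18.9%. The difference was -1.66 in mutants (SE 0.62, adjusted p = 0.315) and -1.23 in wild type (adjusted p = 0.484). Averaged over genotypes it was -1.45 (SE 0.44, adjusted p = 0.0678), in a comparison where 1.88% of genes were called lower. Chek1 at -0.76 (adjusted p = 0.0580), Cdc25c at -0.90 (adjusted p = 0.0646) and Cdc25a at -0.77 (adjusted p = 0.0666) came as near to the threshold. Their partners Rpa3 at -0.94 (adjusted p = 0.0341), Rfc5 at -0.89 (adjusted p = 0.0400) and Bard1 at -0.76 (adjusted p = 0.0474) fell in that average. All 9 members lay below 0 there (median -0.69, beside -0.19 over all genes). Of the helicase and origin list 8 of 14 fell (median -0.97) and of the proliferation list 4 of 15, with all 15 below 0 (median -1.09). Of the luminal list 12 of 13 lay below 0 and none passed (median -0.98). The part of these lists in the members' values was not tested. The lowest dp18 value of Wee1 in each genotype came from replicate 1, an array of low resemblance, and without the 3 such arrays its averaged difference was -1.08 (adjusted p = 0.112). The averaged count of members was 4 without mutant dp18 replicate 3 and 4 without mutant Lac10 replicate 2. It was 2 without wild type dp18 replicate 3, mutant Lac10 replicate 1 or mutant Lac10 replicate 3, and 1 without wild type Lac10 replicate 1. These counts stand without the share of all genes called in the same refits, so they do not set the members apart. Centring on housekeeping genes moved the median of all genes by 0.31 in mutants and 0.38 in wild type.

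Between dp18 and Lac10 no gene was called in either genotype, and no member was. At an unadjusted p under 0.05, 2.95% of genes in mutants and 8% in wild type differed. Arrays of the stages did not overlap for 1 member in each genotype, Cdc25c in mutants (lower, against 1.46% of genes) and Chek2 in wild type (higher, against 9.83%). Cdc25c read 5.71, 5.51 and 4.24 at Lac10 in mutants, against 5.87, 6.08 and 6.14 at dp18, a difference of -0.88 (adjusted p = 0.987). Chek2 read 7.51, 7.81 and 7.44 at Lac10 in wild type, against 5.84, 6.65 and 7.28 at dp18, a difference of 1.00 (adjusted p = 0.526). In mutants Chek2 read 6.13, 5.48 and 7.04 at Lac10, against 6.60, 7.70 and 7.28 at dp18, which overlap, a difference of -0.98 (adjusted p = 0.987). The difference between these changes, mutant minus wild type, was -1.98 (SE 0.56, adjusted p = 0.742), where no gene was called (0%) and 6.26% had an unadjusted p under 0.05. The lowest wild type dp18 value of Chek2 came from replicate 1, an array of low resemblance.

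Set against V, Lac10 gave 1 member call in each genotype, and the called genes differed. In mutants Chek2 read 6.13, 5.48 and 7.04 at Lac10, against 5.97, 4.80 and 5.42 at V, and the stages overlapped (0.82, 95% interval -0.01 to 1.64, adjusted p = 0.208). This difference passed under housekeeping centring (1.09, adjusted p = 0.0481). In wild type Chek2 was higher, where 6.01% of genes were called higher. It read 7.51, 7.81 and 7.44 at Lac10, against 5.60, 5.94 and 4.92 at V, with every Lac10 array above every V array, which held for 5 of 9 members against 26.4% of genes. The rise was 2.10 (SE 0.40, adjusted p = 0.00357). Averaged over genotypes Chek2 rose by 1.46 (SE 0.28, adjusted p = 0.00349), where 3.07% of genes were called higher. Without wild type Lac10 replicate 1, mutant dp18 replicate 3 or mutant Lac10 replicate 1, Wee1 was called as well, lower at Lac10 than at V. It lay at -1.50, -1.30 and -1.72 (adjusted p = 0.0495, 0.0475 and 0.00677), so the averaged count of calls was then 2. The share of all genes called without these arrays is not given here.

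In wild type 2 further members lay near the threshold at Lac10. Cdc25a read 7.20, 6.73 and 6.64 at Lac10, against 5.96, 5.83 and 5.77 at V, a difference of 1.00 (adjusted p = 0.0669). Atm read 6.85, 6.55 and 6.57 at Lac10, against 5.87, 5.20 and 5.53 at V, a difference of 1.12 (adjusted p = 0.0715). Neither overlapped between the stages. Without the 3 arrays of low resemblance, or with the compared arrays alone, 3 members passed. The count was also 3 without wild type dp18 replicate 1 or mutant Lac10 replicate 3, and 2 without mutant dp18 replicate 1 or mutant Lac10 replicate 2. For these refits the share of all genes called is not given here, so the counts do not set the members apart. Mki67 rose by 2.19 in wild type at Lac10 (adjusted p = 0.0168), the single call among the 15 proliferation genes, and their average was 7.16 on wild type Lac10 replicate 1, against 5.81 and 6.42 on the other Lac10 arrays. Chek2 was as high without that array and mutant dp18 replicate 2 (2.14, adjusted p = 0.0066).

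In mutants Wee1 was lower at Lac10 than at V, where 2.59% of genes were called lower. It read 9.26, 5.73 and 7.85 at Lac10, against 9.80, 10.45 and 9.89 at V. All Lac10 values lay below all V values, which held for 1 of 9 members against 18.3% of genes, and the Lac10 values spread widely (mean 7.61, SD 1.78, n = 3, against 10.05, SD 0.35, n = 3). The difference was -2.44 (SE 0.62, adjusted p = 0.0398). In wild type Wee1 read 9.73, 8.68 and 8.48 at Lac10, against 9.35, 9.05 and 9.01 at V, which overlap (-0.17, 95% interval -1.46 to 1.11, adjusted p = 0.888).

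The lowest Wee1 value came from mutant Lac10 replicate 2, the array with the lowest resemblance. Without that array the difference was -1.49 (adjusted p = 0.291), and without the 3 arrays of low resemblance it was -1.49 (adjusted p = 0.0888). The call also ended without any 1 of the 3 mutant V arrays (adjusted p 0.0822 to 0.163). It ended by a narrow margin (adjusted p 0.0503 to 0.0540) without any 1 of the mutant dp12 arrays, any 1 of the wild type dp12 arrays, wild type V replicate 3 or wild type Lac10 replicate 2. Without any single array the difference lay between -3.26 and -1.49. The luminal epithelium list averaged 9.75, 6.73 and 7.99 on the mutant Lac10 arrays, against 9.48, 9.60 and 9.69 on the mutant V arrays. It ranked these Lac10 arrays in the same order as Wee1. In no other group did the orders match, and at dp12 they were reversed in both genotypes. Of the 13 luminal genes 1 fell (median -1.64, beside -0.18 over all genes). Of all genes 0.282% were called higher in this comparison. Of the white adipocyte list 1 of 9 rose, its mean reaching 9.26 on mutant Lac10 replicate 3, and milk genes rose in 6 of 11 cases. The endothelium list averaged 7.66 to 10.06 on the mutant Lac10 arrays, against 8.24 to 8.52 on the mutant V arrays. RMA values have no 0, so no marker can be called absent. The part of luminal content in the Wee1 difference was not tested.

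In the same mutant comparison 3 of 17 p53 response genes fell, Cdkn1a at -1.60 (adjusted p = 0.0229), Sesn2 at -2.14 (adjusted p = 0.0295) and Mdm2 at -1.59 (adjusted p = 0.0473), and 16 of 17 lay below 0. Cdkn1a encodes p21, a CDK inhibitor, and Mdm2 the ligase that degrades p53. In the stability and 14-3-3 list 3 of 17 fell, Hsp90aa1 at -1.51, Fbxw11 at -1.25 and Ywhah at -1.08. Hsp90aa1 encodes a form of the chaperone that keeps WEE1 folded, and Fbxw11 a ligase subunit that marks WEE1 and CDC25A for destruction. Of the clock output genes Cry1, a clock repressor, fell by 1.20 (adjusted p = 0.0288). No gene of the ATR, ATM, mitotic entry, helicase or proliferation lists was called.

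A test over all 4 stages at once called Cdc25c (adjusted p = 0.00199), Chek2 (0.00423), Cdc25a (0.0228), Wee1 (0.0315) and Chek1 (0.0465) in mutants, where 6.08% of genes were called. In wild type it called Chek2 (adjusted p = 0.0126) and Cdc25c (0.0162), where 4.74% were. The mutant count of 5 was 2 without any 1 of the dp12 arrays and 3 without V replicate 2 or V replicate 3. The wild type count of 2 was 0 without V replicate 3 and 1 without V replicate 2, dp12 replicate 1 or dp12 replicate 3. It was 6 without dp18 replicate 1 and 4 without mutant Lac10 replicate 2. The shares of all genes called in these refits are not given here, so the counts do not set the members apart.

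No member passed for mutant against wild type at any stage. At V, dp12, dp18 and Lac10 the shares of all genes called were 0.0263%, 0%, 0% and 0.236%, and averaged over stages 0%. At an unadjusted p under 0.05 the shares were 15.8%, 1.21%, 0.656% and 17.6%, and averaged over stages 3.01%. Among members 2 at V and 3 at Lac10 had such a p. At V, 7 of 9 members were higher in mutants, with a median of 0.35 beside 0.20 over all genes, and at Lac10 all 9 were lower, with a median of -0.14 beside -0.19 over all genes. Under housekeeping centring the median of all genes at Lac10 moved by 0.48, and 6 of the 9 members then stood above 0 there, the exceptions being Wee1, Cdc25a and Chek2.

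**Figure D4:**
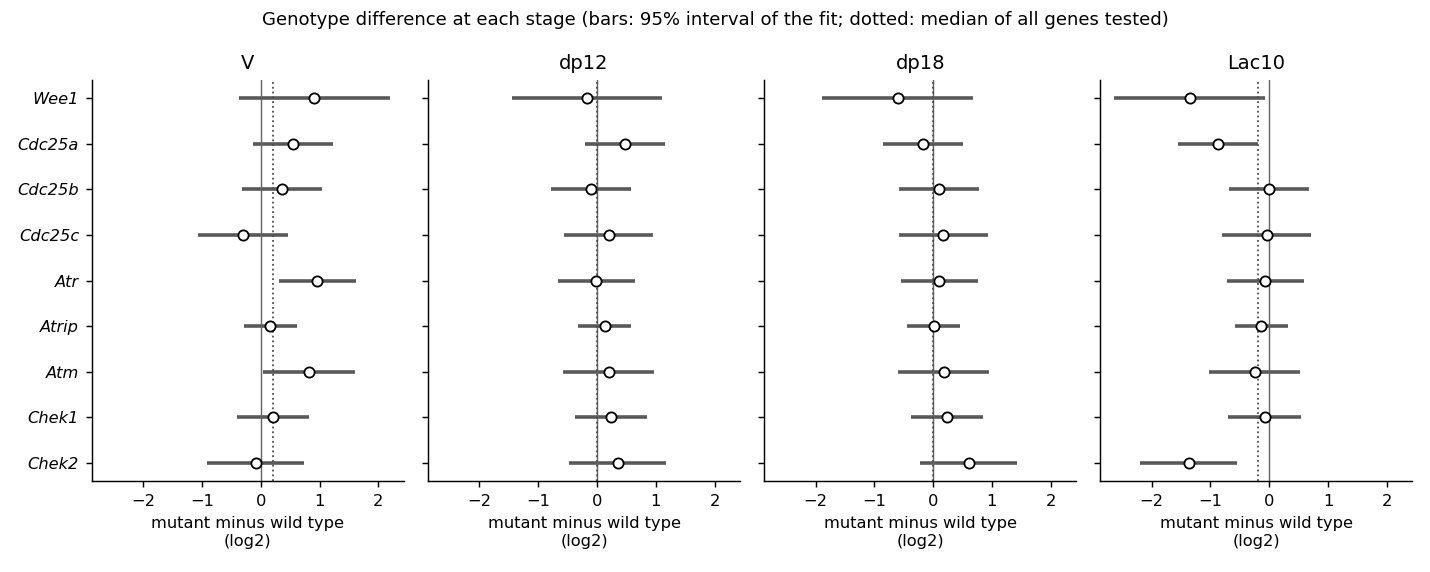
Mutant minus wild type on the log2 scale for the 9 measured members at each stage, with 95% intervals of the limma fit and a dotted line at the median of all genes tested. Atr at V (0.96), Atm at V (0.82), Wee1 at Lac10 (-1.35), Cdc25a at Lac10 (-0.87) and Chek2 at Lac10 (-1.37) have intervals apart from 0, and none passed over all genes.

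At V the differences of Atr, Wee1 and Atm were the largest among the members. The other kinase genes, Chek1 and Chek2, lay at 0.21 and -0.09. Atr read 7.40, 6.89 and 6.21 in mutants, against 6.08, 5.49 and 6.03 in wild type, without overlap, a difference of 0.96 (SE 0.32, adjusted p = 0.244). Atm read 6.94, 6.36 and 5.76 in mutants, against 5.87, 5.20 and 5.53 in wild type, a difference of 0.82 (SE 0.37, adjusted p = 0.300), and mutant replicate 3 lay within the wild type range. Wee1 read 9.80, 10.45 and 9.89 in mutants, against 9.35, 9.05 and 9.01 in wild type, without overlap, a difference of 0.91 (SE 0.62, adjusted p = 0.438). Groups without overlap and higher in mutants made up 25.5% of all genes at V, and 2 of 9 members. Under array weights 4 members were called higher at V, Wee1, Cdc25b, Atr and Atm, with adjusted p between 0.0117 and 0.0131. The share of all genes called under these weights is not given here, so these calls do not set the members apart. The luminal list averaged 9.48 to 9.69 in mutants, against 8.57 to 9.27 in wild type, and the part of this in the differences was not tested.

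At Lac10 Chek2 read 6.13, 5.48 and 7.04 in mutants, against 7.51, 7.81 and 7.44 in wild type. Every mutant array lay below every wild type array, and the mutant spread was wider (SD 0.79, against 0.20, n = 3 each). The difference was -1.37 (SE 0.40, adjusted p = 0.0976). Without mutant Lac10 replicate 3 it passed (-1.79, adjusted p = 0.0141), as did Cdc25a (-1.12, adjusted p = 0.0493), and the share of all genes called in that refit is not given here. Cdc25a read 6.18, 5.28 and 6.49 in mutants, against 7.20, 6.73 and 6.64 in wild type, again without overlap, a difference of -0.87 (SE 0.33, adjusted p = 0.190). Wee1 read 9.26, 5.73 and 7.85 in mutants, against 9.73, 8.68 and 8.48 in wild type, a difference of -1.35 (SE 0.62, adjusted p = 0.263) that was -0.41 without mutant replicate 2 and 0.14 under array weights. Mki67 differed by -1.70 (adjusted p = 0.121) and Cdkn1a by -0.99 (adjusted p = 0.167). Groups without overlap and lower in mutants made up 12.4% of all genes, and 2 of 9 members.

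Whether the genotype difference varied between stages was tested over all 4 stages, and no member passed (0.00656% of genes were called). The smallest values were those of Chek2 (adjusted p = 0.330), Cdc25a (adjusted p = 0.354) and Wee1 (adjusted p = 0.467). The Lac10 minus V change, mutant minus wild type, was -2.26 for Wee1 (95% interval -4.08 to -0.45, adjusted p = 0.104), -1.42 for Cdc25a (-2.38 to -0.46, adjusted p = 0.0781) and -1.28 for Chek2 (-2.45 to -0.12, adjusted p = 0.133), in a comparison where 0.0197% of genes were called and 30.8% had an unadjusted p under 0.05. So the mutant fall of Wee1 and the wild type rise of Chek2 were not shown to differ between genotypes. This last contrast was added after the single-genotype calls were seen. Its count of 0 members became 3 without mutant Lac10 replicate 3 and 1 without mutant Lac10 replicate 1 or wild type dp18 replicate 1. How many of all genes were called in those refits is not given here.

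None of the listed partners passed for genotype at V or Lac10. At V all 17 p53 response genes lay above 0, with a median of 0.52 beside 0.20 over all genes, a median that housekeeping centring moves by -0.18. Btg2 was at 0.91 (adjusted p = 0.238). Of the ATM list 15 of 17 lay above 0, led by Mdc1 at 1.02 and Rif1 at 1.65 (adjusted p = 0.219 each). The mitotic entry list had 4 of 16 above 0 and the proliferation list 2 of 15, with medians of -0.23 and -0.33. At Lac10 all 15 proliferation genes lay below 0 (median -0.51), as did 15 of 16 mitotic entry genes (-0.55), 15 of 17 p53 response genes (-0.52) and all 13 luminal genes (-1.04), beside -0.19 over all genes, a median that housekeeping centring moves by 0.48. The part of these lists in the members' Lac10 differences was not tested. The Lac10 values nearest to the threshold were Hlf at -1.48 (adjusted p = 0.0585), the clock activator genes Rora at -1.16 (adjusted p = 0.0764) and Npas2 at -1.52 (adjusted p = 0.0785), and Ppp2r2d, a subunit of the phosphatase that opposes CDK1, at -1.33 (adjusted p = 0.0877).

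Wee1 was then set beside other genes and lists. Over the 24 arrays, which share stages, genotypes and array quality, its Pearson correlation was 0.176 with Chek2, 0.289 with Cdc25c and at most 0.595 with another member, Cdc25a. Over the 21 arrays without the 3 of low resemblance its highest correlation with a member was 0.650, with Chek1, and that with Cdc25a was 0.366. It was 0.358 with Mki67 and 0.653 with Mcm2 over the 24 arrays, where Chek2 stood at 0.881 and 0.583. With the mean of the luminal list it was 0.913, and 0.882 over the 21 arrays. This holds across groups, since within groups the orders matched only in mutant Lac10 and were reversed at dp12 in both genotypes. The share of all genes with so high a luminal correlation is not given here. The luminal correlation of the other members ran from 0.193 for Chek2 to 0.615 for Cdc25a. The 5 genes most like Wee1 were Ets2 (0.970), Foxp4 (0.966), Kpna3 (0.962), Klf6 (0.958) and Rlim (0.957), between 0.926 and 0.948 over the 21 arrays. Wee1 correlated with array resemblance at 0.767, which was 0.401 over the 21 arrays.

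**Figure D5:**
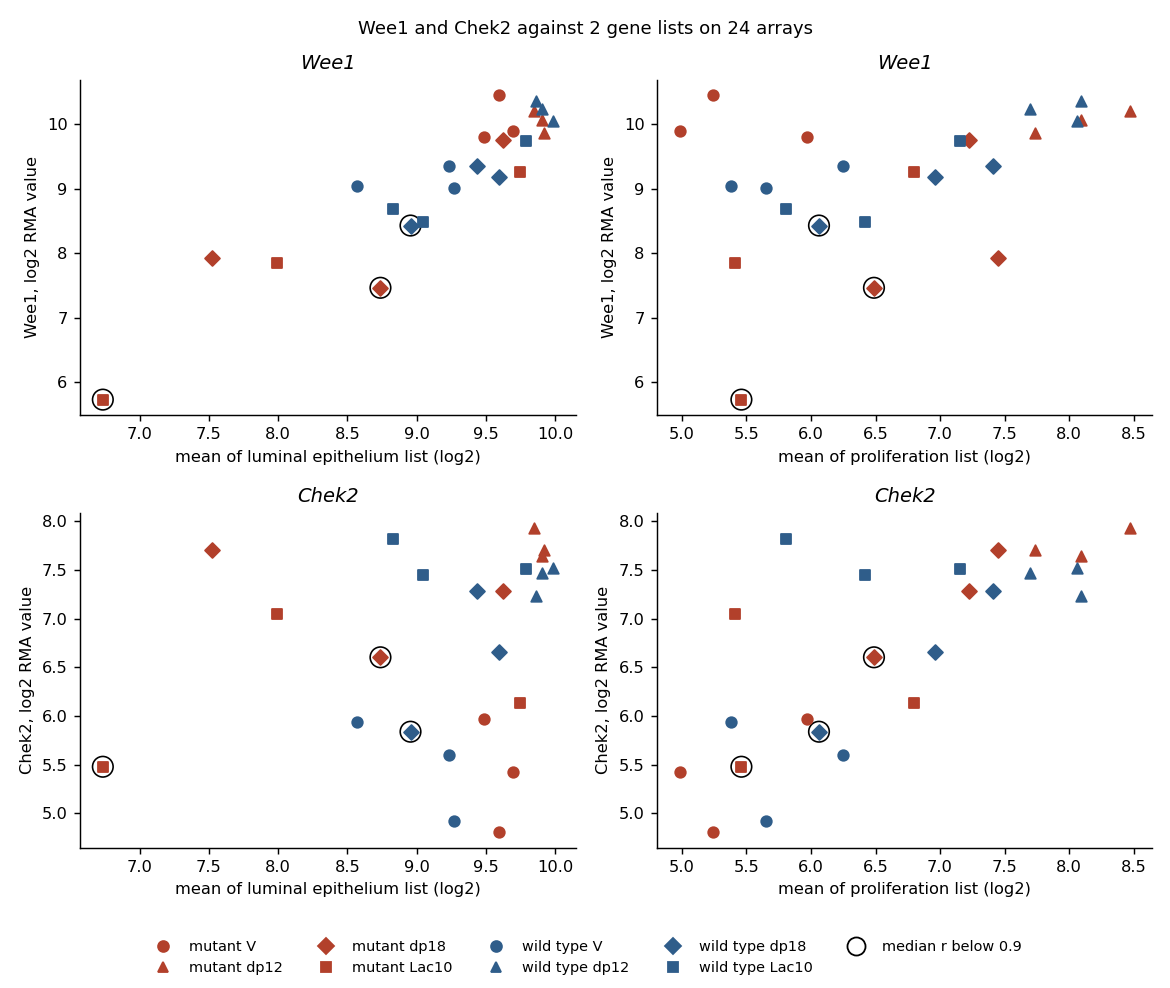
Log2 RMA value of Wee1 (top) and Chek2 (bottom) on 24 arrays against the mean of the luminal epithelium list (left) and of the proliferation list (right), with colour for genotype, symbol for stage and a ring on the 3 arrays of median correlation under 0.9. Over all 24 arrays Wee1 runs along the luminal list (r = 0.913) and Chek2 does not (r = 0.193), while within groups the Wee1 and luminal orders match only in mutant Lac10.

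Among the other members the closest pairs over the 24 arrays were Atr with Atm (r = 0.885, and 0.880 over the 21 arrays) and Cdc25c with Chek1 (0.868 and 0.875). Cdc25a stood at 0.822 with Atm and at 0.800 with Chek2. With Mki67 the highest were Chek2 (0.881), Cdc25a (0.816) and Cdc25c (0.811), and the lowest Atrip (0.116). The genes most like Cdc25c were Ttk (0.974), a kinase of the spindle checkpoint, Fanci (0.973), of the Fanconi anaemia repair pathway, and Aspm (0.972), a spindle pole protein gene. Those most like Chek1 were Brca1 (0.948), the chromatin remodeller Hells (0.940) and Dtl (0.934), whose product removes the licensing factor CDT1. Atm was most like Prkdc (0.960), which encodes a kinase of its own family, then Rfc1 (0.948) and Nsd1 (0.942). Atr was most like Ipo11 (0.942), Cdc25a like Mrpl42 (0.941), Chek2 like Mmut (0.914) and Cdc25b like Mphosph9 (0.908). Atrip, with the narrowest range, had no gene above the 0.844 of Wars. These likenesses are descriptions over the same arrays, with no test.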

How the data were processed

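Each of 24 mouse arrays was read in one colour. The authors deposited RMA log2 values, per the submitters' processing notes, which give no RMA version; values ran from 1.98 to 13.51. The platform annotation gives 1 gene symbol for 23521 of the 41345 probe sets, more than 1 for 1814 and no symbol for 16010. Each of the resulting 22180 genes kept the probe set with the highest mean, and 15234 were above the array median on at least 3 arrays and were tested. Groups came from the labels, with 0 other columns of samples in the table. One mean per group was fitted with limma 3.58.1 in R 4.3.3 (16 residual degrees of freedom), with Benjamini-Hochberg adjustment over all 15234 genes and a threshold of 0.05. The model scripts were tested on simulated data. Arrays have no read depth, and their number limits the precision; the median standard error of a comparison was 0.30. All measured members were named, and list genes by smallest p within each list and comparison. The members and the gene lists were chosen with earlier results of these data known. Alternatives covered probe set choice, the filter, centring, array weights, body weight, omitted arrays and a replicate block.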

Additional observations from a re-analysis of the deposited data

How the results depend on the processing

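Counts of members called are given here. For the alternatives, here and above, they stand without the share of all genes called under the same setting. They therefore do not set the members apart from other genes. Of the called values of single members, none reversed under any alternative, while 82 of 504 with 1 array left out and 23 of 268 others no longer passed. Of the uncalled values, 32 of 4032 and 61 of 2063 passed. Array weights gave 4 at V and 1 at Lac10 for mutant against wild type (0 each), 5 for dp18 against dp12 and 3 for Lac10 against dp18 in wild type (0 each), 0 for Lac10 against V in mutants (1), 4 in wild type (1) and 2 averaged (1), 4 for dp18 against dp12 averaged (0), 8 for any stage difference in wild type (2) and 2 for a genotype difference unequal over stages (0). For the genotype difference in change they gave 2 at dp12 against V, 1 at Lac10 against dp18 and 3 at Lac10 against V (0 each). A body weight covariate, fitted on the 22 arrays with a recorded weight and so without the dp18 replicate 1 array of each genotype, gave 2 for genotype at Lac10, 0 in mutants and 3 in wild type for Lac10 against V, 2 for the difference in that change and 5 for any stage difference in wild type. The same 22 arrays without the covariate, added after seeing the data, gave 1, 1, 3, 1 and 6. Both wild type counts thus stood above their main values of 1 and 2 without the covariate too. Housekeeping centring gave 1 for dp12 against V in wild type (7), 2 in mutants and 2 averaged for Lac10 against V, and 1 for any stage difference in wild type. Centring on the array median gave 0 for Lac10 against V in mutants. No filter gave 2 for dp12 against V (4) and 0 for Lac10 against V in mutants. A robust variance trend gave 1 for dp18 against dp12 averaged. The compared arrays alone gave 0 in mutants and 3 in wild type for Lac10 against V, 1 for the difference in change at dp12 against V and 2 for any stage difference in mutants (5).

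Without the 3 arrays of low resemblance, chosen after seeing the data, the counts were 1 for genotype at V, 0 in mutants, 3 in wild type and 2 averaged for Lac10 against V, 1 for the difference in that change, and 3 in mutants and 7 in wild type for any stage difference. Leaving out 1 array at a time gave 0 to 2 for genotype at Lac10, 2 to 5 in mutants, 0 to 7 in wild type and 6 to 7 averaged for dp12 against V, 0 to 4 for dp18 against dp12 averaged, 0 to 1 in mutants, 1 to 3 in wild type and 1 to 2 averaged for Lac10 against V, 0 to 3 for the difference in that change, and 2 to 5 in mutants and 0 to 6 in wild type for any stage difference; the others stayed at 0. The causes were not tested. The deviations of same-numbered wild type arrays had a median correlation of 0.0269 over 18 pairs, of which 4 were over 0.1. Differently numbered arrays had a median of -0.0070 over 36 pairs, of which 7 were over 0.1, so the numbers were not taken as pairs. With a replicate block in the wild type arrays the counts were 7 for dp12 against V, 1 for Lac10 against V and 2 for any stage difference. Without the block, those arrays alone gave 7, 2 and 3.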
